A study of Mus musculus with 24 samples.

Results

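The 10 genes described here store neutral lipid in droplets or release it again: Plin2 and Plin3 (droplet coats), Cidea and Cidec (droplet fusion), Dgat1 and Dgat2 (triglyceride synthesis), Lpl, Pnpla2 and Lipe (lipases) and Fabp3 (fatty acid binding). They were chosen by symbol, with earlier results of these data known. All 10 were found in both of the authors' deposited results tables, among 20625 genes listed in either. The study sequenced poly(A) RNA of mouse E14 embryonic stem cells, which carried intact Smad2 (wild type) or came from 1 of 2 Smad2 knockout lines, Smad2_KO1 and Smad2_KO2. SMAD2 relays Nodal and activin signals from their receptors to target genes. All cells grew on gelatin in serum with leukaemia inhibitory factor. Control cells had no further agent, and paused cells were given 200 nM INK128, which blocks the growth kinase mTOR, for 12 h. There were 4 libraries per genotype and condition, 24 in 6 groups. The labels do not say whether a knockout line is a single clone or whether replicates were separate cultures, so the p-values may measure technical spread alone. The series title names Pparg, a nuclear receptor that switches on lipid storage genes, and the question was how these genes respond to loss of Smad2 in each condition.

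Cells keep surplus fatty acids as triglyceride inside lipid droplets, which bud from the endoplasmic reticulum under a single layer of phospholipid. The DGAT enzymes make the triglyceride, perilipins cover the droplet and control access to it, and CIDE proteins sit where droplets touch and pass lipid from the smaller to the larger one. Lipolysis runs in steps: adipose triglyceride lipase (Pnpla2) removes the first fatty acid, hormone-sensitive lipase (Lipe) the next, and monoglyceride lipase the last. Lipoprotein lipase (Lpl) works outside the cell, on triglyceride carried in lipoproteins. Several of these genes, Cidec, Lpl and Plin2 among them, are known targets of PPAR receptors in fat or liver.

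Each of the authors' deposited tables gives per gene a mean normalized read count, a log2 change with its standard error (SE) and an adjusted p, and holds no value of a single library. Depth per library, the spread between libraries and the separate knockout lines therefore cannot be shown. A gene is called here when the deposited adjusted p is under 0.05. The tables do not say which genotype is the numerator; positive changes are taken here as higher in the knockout, since the Smad2 transcript was lower, at 78.6% of wild type in the authors' deposited control table and 64.6% in the paused one, and if this reading were wrong each direction below would be the reverse. Of all genes with a p, 41.4% of 19778 were called in the authors' deposited control table and 42.6% of 19979 in the paused one. With equal summed counts in both genotypes the share of calls that were higher in the knockout went from 47.1% to 60.5% in control and from 48.2% to 57.6% in paused cells. All 8 embryonic stem cell markers were listed, with means from 8797 to 51710 normalized counts in the authors' deposited control table.

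In control cells 7 of the 10 genes were called in the authors' deposited table: Plin3, Cidea, Cidec, Lpl, Lipe and Fabp3 were higher in the knockout and Plin2 was lower, as were 21.9% of all genes. In paused cells 6 were called in the authors' deposited table, all higher: Plin3, Cidea, Cidec, Lpl, Lipe and Pnpla2. Called and higher genes made up 19.5% of all genes in control and 20.5% in paused cells, beside 6 of these 10 in each. The median log2 change of the 10 was 0.38 in the authors' deposited control table and 0.35 in the paused one, where the median of all genes was 0.00 in each. Plin3, Cidea, Cidec, Lpl and Lipe were called higher in both conditions, as were 14.3% of the 19134 genes in both tables. Dgat1 and Dgat2 were called in neither. Once the statistic was divided by its middle spread over all genes, Plin3 was still called in control cells, and Plin3 and Lpl in paused cells, as were 293 and 450 of all genes.

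**Figure D1:**
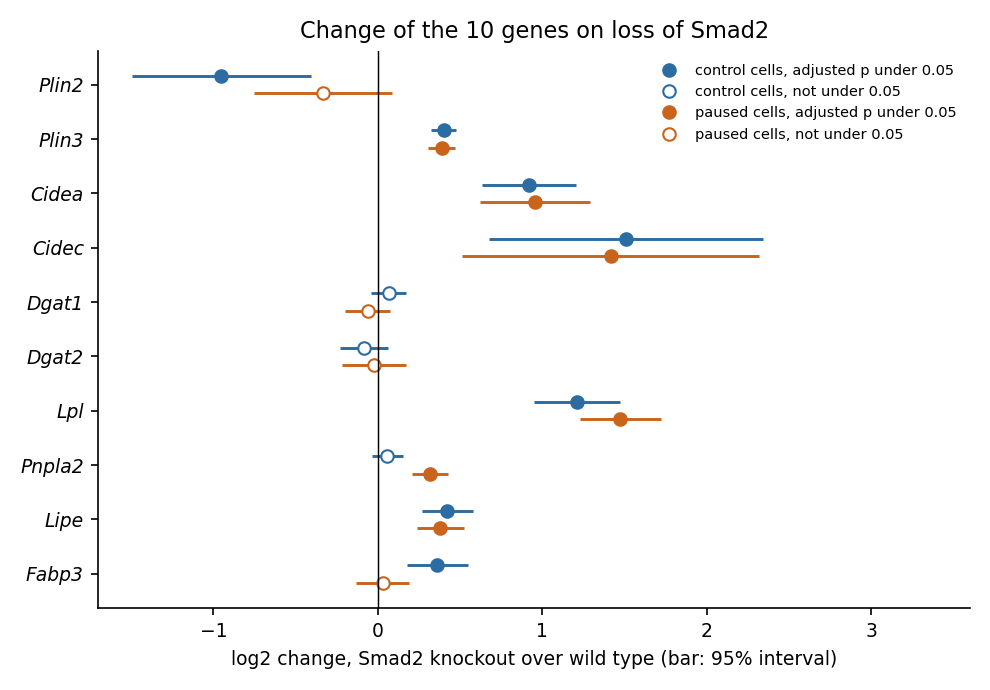
The log2 change (x axis, knockout over wild type) of each of the 10 genes in control cells (blue) and paused cells (orange), with bars for the 95% interval and filled points for an adjusted p under 0.05. Lpl, Cidea and Cidec lie farthest to the right in both conditions, Dgat1 and Dgat2 straddle 0, and Plin2 lies to the left of 0 with one of the widest bars.

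The perilipins of the list went apart in control cells. Plin2, the coat protein of droplets in most cells outside fat tissue, fell in the authors' deposited control table by 0.95 on the log2 scale (SE 0.28, adjusted p 0.00261), to 51.7% of wild type, at a mean of 1046 normalized counts. This call did not hold against a null of up to 1.2-fold (adjusted p 0.109). Its value of -0.34 in the authors' deposited paused table did not pass (SE 0.21, adjusted p 0.207, mean 1844 normalized counts), with a 95% interval from 59.2% of wild type to 1.06-fold of it. Plin3, a coat protein that moves from the cytosol onto nascent droplets, rose in both. Its log2 change was 0.40 in the authors' deposited control table (SE 0.04, adjusted p 2.36e-21, mean 7115 normalized counts) and 0.39 in the paused one (SE 0.04, adjusted p 2.05e-19, mean 8278 normalized counts). These values stand for rises of 1.32-fold and 1.31-fold.

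Plin2 was measured far less precisely than genes of like abundance. Among the 500 genes nearest to it in mean count, 1 had a larger SE in the authors' deposited control table, and its SE was 3.96 times their median. Of the 500 nearest in the authors' deposited paused table, 0 had a larger SE than Plin2, whose SE was 4.21 times their median. Plin3 lay at 0.75 and 1.01 times the median SE of its own 500 neighbours in control and paused cells. Whether the Plin2 libraries divide by knockout line or by replicate was not tested, since no library value is listed.

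**Figure D2:**
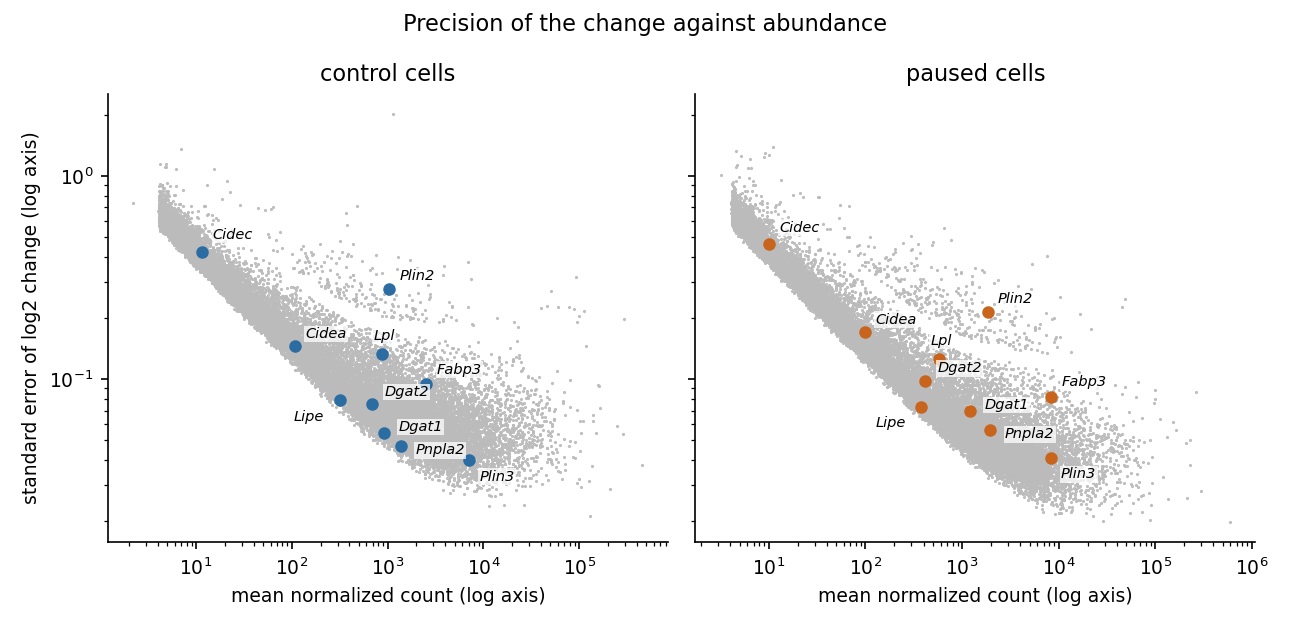
Standard error of the log2 change (y axis, log scale) against mean normalized count (x axis, log scale) for every gene (grey) and for the 10 genes (coloured), in control and paused cells. Plin2 stands above the main band of genes of its abundance in both panels, at 3.96 and 4.21 times the median standard error of its 500 neighbours, while Plin3 lies within it.

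The start region of Plin2 is shown because Plin2 was the only member to fall, beside that of Cidec, which rose in both conditions, and that of Pnpla2, whose change differed between them. Each window runs from 250 bases before to 50 bases after the RefSeq start site (GRCm38.p6, the assembly of mm10, which the submitters' processing notes name). It is read 5′ to 3′ on the gene's strand. Capitals mark the nuclear receptor hexamer AGGTCA and the SMAD box CAGAC, each on either strand. The Plin2 window is chr4:86670010-86670309 on the minus strand, the Cidec window chr6:113435711-113436010 on the minus strand (the first of 2 start sites), and the Pnpla2 window chr7:141454938-141455237 on the plus strand.
Plin2: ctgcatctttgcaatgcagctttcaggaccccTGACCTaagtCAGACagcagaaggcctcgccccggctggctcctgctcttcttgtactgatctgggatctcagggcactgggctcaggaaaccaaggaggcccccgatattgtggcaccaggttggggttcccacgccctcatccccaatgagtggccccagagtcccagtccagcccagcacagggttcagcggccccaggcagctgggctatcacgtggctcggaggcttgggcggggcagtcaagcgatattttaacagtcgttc
Cidec: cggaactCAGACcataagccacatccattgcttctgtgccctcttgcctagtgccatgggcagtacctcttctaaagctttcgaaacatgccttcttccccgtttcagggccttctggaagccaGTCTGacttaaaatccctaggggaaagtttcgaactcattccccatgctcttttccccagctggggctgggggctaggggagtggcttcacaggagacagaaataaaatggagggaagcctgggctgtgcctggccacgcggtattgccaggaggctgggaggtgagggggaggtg
Pnpla2: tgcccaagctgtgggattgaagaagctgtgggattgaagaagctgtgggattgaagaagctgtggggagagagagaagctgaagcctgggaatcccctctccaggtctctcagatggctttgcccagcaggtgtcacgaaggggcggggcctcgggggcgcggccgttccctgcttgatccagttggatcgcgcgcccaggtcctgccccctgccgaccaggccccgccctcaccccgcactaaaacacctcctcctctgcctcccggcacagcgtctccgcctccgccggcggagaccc

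The Plin2 window held 1 nuclear receptor hexamer, which began at base -218 from the start, and 1 SMAD box at -208. Cidec had 2 SMAD boxes and no hexamer in its window, and Pnpla2 had neither. Plin3, which rose in both conditions, and Fabp3 also had neither. Lipe had 1 SMAD box and no hexamer at each of its start sites, as did the second Cidec window. Whether these matches go with the changes was not tested. Of 32851 RefSeq promoter windows of this length, 16.3% held the hexamer and 49.6% the SMAD box. The full PPAR element AGGTCANAGGTCA, a repeat of the hexamer, was in 0.040% of all windows. It was in 0 of the 8 windows found for Plin2, Plin3, Cidec, Pnpla2, Lipe and Fabp3. An exact match is so rare over all windows that its absence from 8 tells nothing about these genes. Plin2 also held the E-box CACGTG at -4, a sequence present in 7.15% of windows. These matches describe letters in a short window and not binding, and the windows include 50 transcribed bases.

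Both CIDE genes rose in both conditions. Cidea, which promotes droplet fusion and is best known from brown fat, was higher by 0.92 in the authors' deposited control table (SE 0.14, adjusted p 3.89e-09), or 1.89-fold. In paused cells Cidea was 0.95 higher in the authors' deposited table (SE 0.17, adjusted p 2.12e-07), or 1.94-fold. Its means were low, 108 and 100 normalized counts in the authors' deposited tables for control and paused cells. Cidec, the fusion protein of white fat, was near the floor of the tables, with means of 11.7 and 10.0 normalized counts in the authors' deposited tables. The Cidec changes of 1.51 in control (SE 0.42, adjusted p 0.00161) and 1.42 in paused cells (SE 0.46, adjusted p 0.00692) per the authors' deposited tables are 2.85-fold and 2.67-fold. Against a null of up to 1.2-fold the control call held and the paused call did not (adjusted p 0.101). Their 95% intervals are wide, 1.60-fold to 5.06-fold and 1.43-fold to 5.00-fold. Only 13.8% of genes in control and 11.7% in paused cells had a lower mean than Cidec.

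Neither enzyme of the last step of triglyceride synthesis was called. Dgat1, which esterifies diacylglycerol in the endoplasmic reticulum, changed by 0.07 in the authors' deposited control table (SE 0.05, adjusted p 0.333, mean 912 normalized counts). Its value was -0.06 in the authors' deposited paused table (SE 0.07, adjusted p 0.502, mean 1209 normalized counts). Dgat2, an unrelated enzyme of the same step that also acts at the droplet surface, had values of -0.08 in control (SE 0.08, adjusted p 0.398) and -0.02 in paused cells (SE 0.10, adjusted p 0.870) per the authors' deposited tables, at means of 686 and 414 normalized counts. The 95% intervals were 0.973-fold to 1.13-fold for Dgat1 and 0.852-fold to 1.05-fold for Dgat2 in control cells. In paused cells they were 0.872-fold to 1.05-fold and 0.860-fold to 1.12-fold.

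Of the lipases, Lpl had the largest response. Lpl codes for the secreted enzyme that frees fatty acids from lipoproteins for uptake. It rose by 1.21 in the authors' deposited control table (SE 0.13, adjusted p 3.79e-18, mean 868 normalized counts), or 2.31-fold. In the authors' deposited paused table it rose by 1.48 (SE 0.13, adjusted p 4.86e-30, mean 573 normalized counts), or 2.78-fold. These sizes exceed those of 95.1% and 96.8% of all genes in control and paused cells. Among the 10 genes Lpl and Cidec were the ones called and changed at least 2-fold, in both conditions; such rises made up 4.46% of genes in control and 4.89% in paused cells.

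The intracellular lipases changed less. Pnpla2, which starts the breakdown of droplet triglyceride, had a value of 0.06 in the authors' deposited control table that was not called (SE 0.05, adjusted p 0.336, mean 1378 normalized counts). With equal summed counts it was called if 8 knockout libraries were assumed (adjusted p 0.0414) and not if 4 were (adjusted p 0.0567), at 0.11 in both. It rose by 0.32 in the authors' deposited paused table (SE 0.06, adjusted p 1.77e-07, mean 1972 normalized counts), or 1.25-fold, a call that did not hold against a null of up to 1.2-fold. Lipe, the hormone-sensitive lipase, rose by 0.42 in the authors' deposited control table (SE 0.08, adjusted p 8.67e-07, mean 316 normalized counts) and by 0.38 in the paused one (SE 0.07, adjusted p 1.76e-06, mean 380 normalized counts). Neither Lipe call held against a null of up to 1.2-fold (adjusted p 0.273 and 0.568). In GENCODE M21 the exons of Lipe share 918 bases, 15.6% of their length, with the antisense gene 4732471J01Rik. That gene had a mean of 41.4 normalized counts in the authors' deposited control table and 67.9 in the paused one, and the strand setting of the count is not given in the sources used here.

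Fabp3, a small cytosolic carrier of fatty acids best known from heart muscle, rose by 0.36 in the authors' deposited control table (SE 0.09, adjusted p 6.43e-04, mean 2542 normalized counts), or 1.28-fold, and this call did not hold against a null of up to 1.2-fold. Its change in the authors' deposited paused table was 0.03 (SE 0.08, adjusted p 0.805, mean 8414 normalized counts), with an interval from 0.913-fold to 1.14-fold. The exons of Fabp3 share 81 bases, 9.84% of their length, with Zcchc17 on the opposite strand. Zcchc17 had a mean of 2195 normalized counts in the authors' deposited control table and 1468 in the paused one.

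Whether loss of Smad2 acted differently in the 2 conditions was tested as the paused change minus the control change over the combined SE, two-sided, with p-values from the normal distribution adjusted by Benjamini-Hochberg over 19134 genes. Of all genes 1.44% passed, and of these 10 genes 1 did. Pnpla2 had the larger change in paused cells, by 0.26 (SE 0.07, adjusted p 0.0335, 95% interval 0.12 to 0.40). This call did not hold with equal summed counts in both genotypes (adjusted p 0.0583), nor once the statistic was divided by its middle spread (adjusted p 0.336). Fabp3 had the smaller change in paused cells, by -0.33 (SE 0.13), which had an unadjusted p of 0.00802 and did not pass after adjustment (adjusted p 0.176). For Plin2 the difference was 0.62 (SE 0.35, adjusted p 0.469) with an interval from -0.07 to 1.31, so the fall called in control cells is not shown to differ from the uncalled value in paused cells. For Lpl it was 0.26 (SE 0.18, adjusted p 0.588). Plin3 gave -0.01 (SE 0.06), with the narrowest interval of the list, -0.12 to 0.10. Lipe gave -0.04 (SE 0.11). The intervals of the CIDE genes were wider, from -0.40 to 0.47 for Cidea, whose difference was 0.04 (SE 0.22), and from -1.32 to 1.14 for Cidec, whose difference was -0.09 (SE 0.63).

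Mean levels can be set beside each other across the tables only as a description, since each table was normalized on its own and no library spread is listed. Fabp3 stood out, with a mean 3.31 times higher in the authors' deposited paused table, a larger ratio than that of 98.6% of genes. Plin2 and Pnpla2 followed at 1.76 and 1.43 times and Dgat1 at 1.33 times. Lpl and Dgat2 had lower means in paused cells, at 0.660 and 0.603 of the control mean. The median ratio of all genes was 1.02, with quartiles of 0.775 and 1.36. These means mix wild-type and knockout libraries, so they do not give the effect of INK128 in either genotype.

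A mean and a fold change together give a level for each genotype once the number of libraries behind the mean is known, which the tables do not state. With 4 wild-type and 8 knockout libraries, Plin2 would stand at 1543 normalized counts in wild-type and 798 in knockout control cells, and at 2140 and 1696 in paused cells. With 4 of each the same values would be 1379, 713, 2058 and 1631. All such levels rest on the direction read from Smad2, and levels under the reverse reading were not computed. As each table was normalized on its own, they are not ranked across the conditions. Lpl would stand at 462 in wild-type and 1070 in knockout control cells, and at 262 and 728 in paused cells, with 4 and 8 libraries. Fabp3 would be at 2137 and 2745 in control and at 8300 and 8471 in paused cells. These are conversions of the authors' deposited values and carry no library spread of their own.

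Per kb of exon (GENCODE M21), the levels of the 10 genes spanned more than 3 orders of magnitude in paused cells. Fabp3 was highest, with a mean of 3089 normalized counts per kb in control and 10224 in paused cells. Plin3 came next at 1879 and 2186, followed by Pnpla2 at 456 and 653. Dgat1 (299 and 396) and Plin2 (298 and 525) were almost level in control cells. Dgat2 followed at 223 and 134, then Cidea at 97.0 and 89.7, Lpl at 82.8 and 54.7, and Lipe at 53.7 and 64.5. Cidec was lowest at 6.30 and 5.40 per kb. In this order the 3 genes that rose most, Cidec, Lpl and Cidea, are among the 4 lowest in control cells. For Lpl this place depends on its exon length, the longest of the list at 10478 bases. Without division by length its control mean of 868 normalized counts was above those of Dgat2 (686) and Lipe (316). Which neighbours in the order differ beyond the spread between libraries could not be tested.

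**Figure D3:**
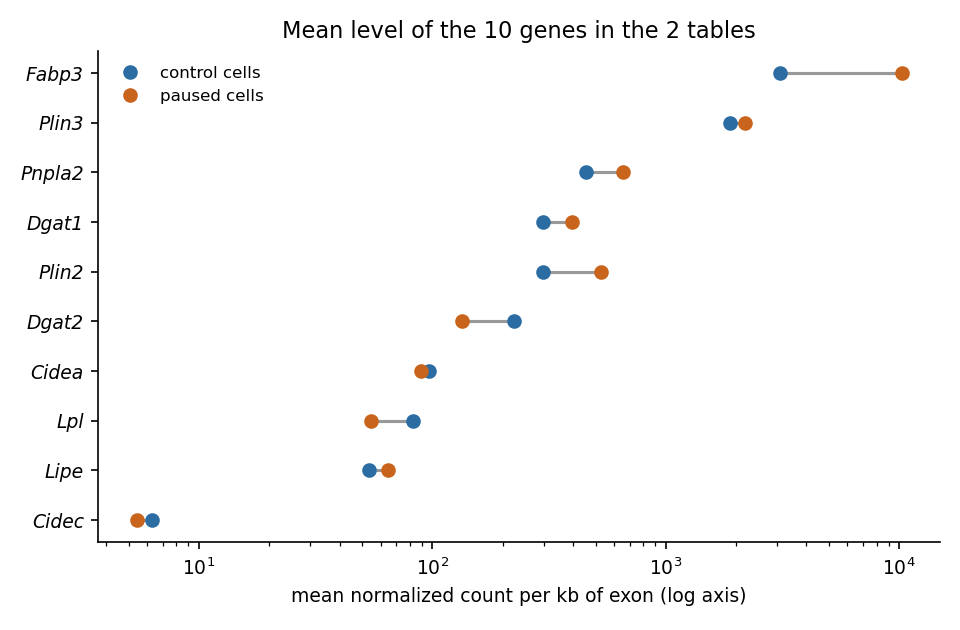
Mean normalized count per kb of exon (x axis, log scale) of each gene in the control table (blue) and the paused table (orange), ordered by the control value. Fabp3 leads at 3089 and 10224 per kb and moves farthest between the tables, and Cidec is lowest at 6.30 and 5.40.

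The wider machinery of lipid storage did not move in 1 direction. Of 68 other gene symbols listed under 4 headings, 57 were in the authors' deposited control table, and 12 were called higher and 16 lower there. The authors' deposited paused table held 58, with 12 called higher and 15 lower, or 16 and 13 with equal summed counts. Their median log2 change was 0.00 in control and 0.04 in paused cells, per the authors' deposited tables, and 49.1% and 46.6% were called, beside 41.4% and 42.6% of all genes. Of the 57 genes in both tables, Lipg and Sel1l passed the test of a difference between the conditions, or 3.51% beside 1.44% of all genes. For the others a call in 1 condition alone is therefore not shown to differ from the other condition. Plin1, Fabp4, Cd36 and Gpihbp1, which mature fat tissue or its vessels use, were listed in neither table.

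Of 12 genes of droplet coats and droplet formation, 1 was called higher and 3 lower in control cells, and 2 higher and 3 lower in paused cells, per the authors' deposited tables. These calls make up 33.3% and 41.7% of the list, no more than the 41.4% and 42.6% of all genes. Fitm2, which helps droplets bud, rose by 0.36 (SE 0.06) in control and 0.38 (SE 0.08) in paused cells, per the authors' deposited tables. Rab18, a small GTPase of the droplet surface, fell by 0.30 (SE 0.04) and 0.37 (SE 0.04) in the authors' deposited tables, and Bscl2, which codes for seipin at the site of budding, by 0.38 (SE 0.07) and 0.15 (SE 0.05). Ldah, a droplet hydrolase, fell by 0.26 (SE 0.05) in the authors' deposited control table and was not called in the paused one (-0.12, SE 0.06). Tmem159, the partner of seipin, was not called in the authors' deposited control table (-0.17, SE 0.13) and fell by 0.45 (SE 0.15) in the paused one. The other perilipins Plin4 and Plin5 were called in neither.

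In the synthesis of triglyceride and sterol ester, 4 of 14 genes were called higher and 6 lower in control cells, per the authors' deposited table, and 3 and 5 of 15 in the paused one. That is 71.4% and 53.3% of the list, beside 41.4% and 42.6% of all genes. Gpat2, a mitochondrial glycerol-phosphate acyltransferase best known from the testis, rose by 1.15 (SE 0.09) and 1.14 (SE 0.08) in control and paused cells, per the authors' deposited tables. Soat1, which esterifies cholesterol for storage in droplets, fell by 1.06 (SE 0.15) and 0.87 (SE 0.12) in the authors' deposited tables. Its relative Soat2, at low counts, rose by 0.42 (SE 0.14) and 1.04 (SE 0.23) in the authors' deposited tables for control and paused cells. Lpin1, a phosphatidate phosphatase, rose by 0.47 (SE 0.07) in control and 0.19 (SE 0.05) in paused cells, per the authors' deposited tables. Mogat2, an acyltransferase of monoacylglycerol, fell by 0.85 (SE 0.21) in the authors' deposited control table, at a mean of 52.4 normalized counts, and was not called in the paused one (-0.32, SE 0.28). Agpat4, an acyltransferase earlier in the pathway, fell by 0.23 (SE 0.08) and 0.32 (SE 0.08) in control and paused cells, per the authors' deposited tables. The difference between the conditions did not pass for Lpin1 (adjusted p 0.0892) or Soat2 (adjusted p 0.280).

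Among other genes of lipolysis, 4 of 13 were called higher and 1 lower in each condition in the authors' deposited tables. At 38.5% in both, this share was below that of all genes. Mgll, the monoglyceride lipase that completes lipolysis, rose by 0.83 (SE 0.15) in control and 0.86 (SE 0.12) in paused cells, per the authors' deposited tables. Pnpla3, a relative of Pnpla2 found on droplets, rose by 0.76 (SE 0.09) and 0.76 (SE 0.11), and Pde3b, a phosphodiesterase that restrains hormone-driven lipolysis in fat cells, by 0.41 (SE 0.08) and 0.48 (SE 0.11) in the authors' deposited tables. Lipa, the acid lipase of lysosomes, fell by 0.45 (SE 0.11) and 0.56 (SE 0.10) in the authors' deposited tables. Abhd5, the activator of Pnpla2, and its inhibitors G0s2 and Hilpda were called in neither condition. Their log2 changes in the authors' deposited tables were -0.06, 0.59 and -0.09 in control and -0.05, 0.44 and 0.04 in paused cells.

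Of 18 partners of lipases and genes of fatty acid uptake, 6 were called lower and 3 higher in each of the authors' deposited tables. That is 50.0% in both, beside 41.4% and 42.6% of all genes. Slc27a2, which activates and takes up fatty acids, fell by 0.75 (SE 0.10) and 0.65 (SE 0.09) in control and paused cells, per the authors' deposited tables. Acsl5, an acyl-CoA synthetase, fell by 0.66 (SE 0.07) and 0.34 (SE 0.07), and Acsl3, a synthetase of nascent droplets, by 0.53 (SE 0.09) and 0.42 (SE 0.17), likewise per the authors' deposited tables. The fatty acid carrier Fabp5 fell by 0.62 (SE 0.13) in control cells and had an uncalled value of -0.19 (SE 0.16) in paused cells, per the authors' deposited tables. Angptl8, a secreted regulator of Lpl, rose by 0.60 (SE 0.20) and 0.38 (SE 0.15) in the authors' deposited tables. Lipg, the endothelial lipase related to Lpl, was not called in control cells (-0.37, SE 0.28) and rose by 1.34 (SE 0.27, adjusted p 4.09e-06) in paused cells, per the authors' deposited tables, at means of 97.6 and 102 normalized counts. Its change differed between the conditions by 1.71 (SE 0.39, adjusted p 0.00332), a call lost against a null of up to 1.2-fold (adjusted p 0.529) and once the statistic was divided by its middle spread (adjusted p 0.107).

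**Figure D4:**
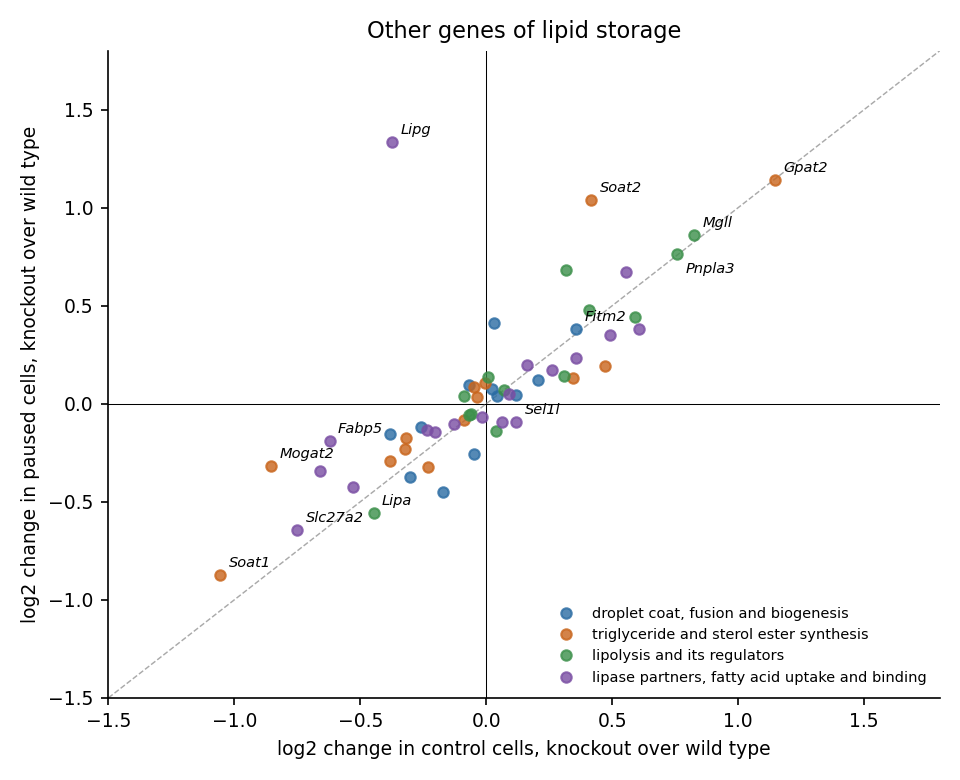
Log2 change in control cells (x axis) against that in paused cells (y axis), knockout over wild type, for the 57 other lipid storage genes in both tables, coloured by list; the dashed line marks equal change. Gpat2, Mgll and Pnpla3 lie at the upper right and Soat1 and Slc27a2 at the lower left near the line, while Lipg lies far above it.

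Pparg rose far more than any of the 10 genes. Its log2 change was 3.26 (SE 0.34) in the authors' deposited control table and 4.44 (SE 0.34) in the paused one. Its means over both genotypes were 48.0 and 85.7 normalized counts in the authors' deposited tables. The test of a difference between the conditions did not pass for Pparg (1.18, SE 0.49, adjusted p 0.237). By the distance between pairs of log2 changes over the 2 comparisons, among 3827 genes called in both tables and above 5 ppm of the summed means, the genes nearest to Lpl were Ttll6 (distance 0.023), Gm20385 (0.089) and Cd37 (0.11). The nearest to Cidea were Wdr20rt (0.011), Gm11237 (0.029) and Slc6a16 (0.032), with 31 genes within 0.1 on the log2 scale, and the nearest to Plin2 were Maff (0.033), Sall2 (0.046) and Mapk11 (0.094), with 3 genes within 0.1. Cidea itself lay below that minimum, and Plin2 was called in control cells alone.

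Markers of other cell types were read in the same tables. In bulk RNA a larger share of cells of another type and more RNA per cell cannot be told apart. Of 8 primitive endoderm markers 7 were called higher in each of the authors' deposited tables, with a median log2 change of 1.06 in both. Their means summed to 4956 normalized counts in the control and 6523 in the paused table, beside 234299 and 200751 for the stem cell markers, and the part of the endoderm markers in the rises of Lpl, Cidea and Cidec was not tested. Of the 8 stem cell markers, 2 were called higher and 1 lower in each of the authors' deposited tables. Of 9 fat cell markers, 4 were in the authors' deposited control table and 1 in the paused one. Lipe was the only one called, and it is itself a member of the list described here. No fat cell marker outside that list was called. Adipoq had a mean of 13.2 normalized counts in the authors' deposited control table, and Plin1, Fabp4 and Lep were in neither table. Of 8 trophoblast markers, 2 were called higher and 2 lower in the authors' deposited control table, and 2 higher and 1 lower in the paused one. Of 8 muscle markers these counts were 2 and 2, then 4 and 2, where 41.4% and 42.6% of all genes were called. Of the fibroblast markers, 3 of 5 measured were called lower in the authors' deposited control table and 2 of 4 in the paused one.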

How the data were processed

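The members and gene lists were chosen with earlier results of these data known. Per the submitters' processing notes, FastQC, Trim Galore, HISAT2, featureCounts, DESeq2 and mm10 were used; versions, annotation, strand setting, filters and the libraries behind each comparison are not given in the sources used here. The authors deposited 2 tables. Per the file headers each holds a mean of normalized counts (a signal value averaged by the authors), a log2 ratio of 2 groups, its standard error on the log2 scale, a test statistic (a score), and a p-value with its adjusted value. The statistic equalled the change over its standard error to within 0.157%, and no deposited adjusted p was off a recomputed Benjamini-Hochberg value by over 1%. As the tables hold 0 columns for single libraries, their own tests stand in for count tests.

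Computed here were the difference test, 95% normal intervals, counts per list, means per kb of exon in GENCODE M21 and motif matches in RefSeq windows, with Python 3.11.15, numpy 2.4.6, scipy 1.17.1, pandas 2.3.3 and matplotlib 3.10.9. Named genes were the 10 members, Smad2, Pparg, per list at most 4 called genes per table by size of change, and the nearest genes by change for Plin2, Lpl and Cidea; others (Plin1, Plin4, Plin5, Abhd5, G0s2, Hilpda, Fabp4, Cd36, Gpihbp1, Lep, Adipoq, and Sel1l, whose change differed between the conditions) were named after their values were seen, and 4732471J01Rik and Zcchc17 for their overlap with member exons. RefSeq windows were matched by symbol for 6 of 10 members, and Cidea, Lpl, Dgat1 and Dgat2 were not used in that step. Alternatives were an adjusted p under 0.01, a 2-fold minimum, a null of up to 1.2-fold (the 1.2-fold test), a statistic divided to give it the middle spread of a standard normal, equal summed counts, median centring and a minimum mean of 5 ppm of the summed means.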

Additional observations from a re-analysis of the deposited data

Results flagged for a closer look

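The change of Pnpla2 on loss of Smad2 differed between control and paused cells by a test of the difference itself, with a value 0.26 higher in paused cells (SE 0.07, adjusted p 0.0335). This call was lost with equal summed counts (adjusted p 0.0583 for 8 and 0.0579 for 4 knockout libraries), the scaled statistic (adjusted p 0.336), the 1.2-fold test, the 2-fold minimum and an adjusted p under 0.01. The change of Sel1l, which codes for an adaptor that Lpl needs to mature, differed in the other direction, by -0.21 (SE 0.06, adjusted p 0.0273), and was not called under the last 3 of these or with the scaled statistic (adjusted p 0.307). Sel1l was called higher in control cells (0.12, SE 0.04) and called lower in paused cells (-0.09, SE 0.04) in the authors' deposited tables. The change of Lipg differed by 1.71 (SE 0.39, adjusted p 0.00332), a call lost with the 1.2-fold test and the scaled statistic, as given above.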

How the results depend on the processing

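No paired analysis was possible because the tables hold no value per library; for the same reason leaving out replicates was not run. Members called in control cells went from 7 to 2 with a 2-fold minimum, 4 with a test against at most 1.2-fold and 1 (Plin3) with the scaled statistic. In paused cells they went from 6 to 2, 3 and 2 (Plin3 and Lpl). Calls over all genes fell with them, from 8189 to 1380, 2090 and 293 in control and from 8504 to 1418, 2122 and 450 in paused cells. Cidea and Cidec lay below the 5 ppm minimum. Of the 8 members above it, 5 were called in control and 4 in paused cells, beside 5569 and 5834 calls among genes above it. How many genes lay above it is not given here, so the members' calls are not read as an excess. With equal summed counts for 8 knockout libraries, 8 members were called in control and 6 in paused cells, beside 7868 and 8215 of all genes. The 1 difference called went to 0 under an adjusted p under 0.01, the 2-fold minimum, the 1.2-fold test, the scaled statistic and equal summed counts with 8 or 4 knockout libraries (the last chosen after seeing the data). Over all genes 275 differences went to 102, 28, 2 and 35, and to 295 and 297 with equal summed counts. At an unadjusted p under 0.05, 2 members differed in each of these but the 1.2-fold test, where 0 did. The share of all genes at that threshold is not given here, and the middle spread of the difference statistic was 1.23. These 2 are therefore not read as an excess among the members. Other lipid storage genes called went from 28 to 2, 9 and 2 in control and from 27 to 3, 8 and 2 in paused cells, in the order 2-fold minimum, 1.2-fold test and scaled statistic. The fall of Plin2 in control cells had an adjusted p of 0.109 against at most 1.2-fold and of 0.873 with the scaled statistic. The uncalled Dgat2 value in paused cells turned to 0.011 and 0.0051 with equal summed counts for 8 and 4 knockout libraries. The adjusted p of Lpl in control cells was 0.0592 with the scaled statistic. The middle spread of the statistic was 2.76 in control and 2.80 in paused cells, where 1 would be that of a standard normal; many small changes and understated standard errors cannot be told apart here. Of 234 member values under an alternative, 200 kept direction and call, 31 lost a call, 1 gained one and 2 changed sign. The cause was not tested.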
